A study of Mus musculus with 4 samples.

Results

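Cell division was followed here through 40 genes of mitosis and the spindle, out of the 32285 genes of the count matrices. The 40 were a fixed list of symbols, and each was found once. They were read in spermatogonia and in the feeder fibroblasts that grew under them, with and without extracellular vesicles (EVs) of the neonatal testis.

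The cultures had been started from Thy1+ cells, isolated with magnetic beads from the testes of 3 male mice at postnatal day 6 (PND6). They grew over a feeder layer of STO, an established mouse fibroblast line. They had then been kept for 3 days with PBS (vehicle 1 and vehicle 2) or with EVs of PND7 testes at 1 μg/mL (EV 1 and EV 2). The methods of the study name C57BL/6 as the strain of its PND7 and adult mice, and no transgene or mutation was named for any group. Both groups shared a medium with GDNF and FGF and the feeder line. Captured RNA molecules, each counted once by its tag (UMI), were analysed here for vehicle 1, vehicle 2 and EV 1, while counts of EV 2 were not analysed here and only its barcodes were used. With counts of 1 EV library there was no test between EV and vehicle, and a difference between them had no replicate check.

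Mitosis separates the copied chromosomes. Cyclin B with Cdk1 starts it, Aurora and Polo-like kinases build the spindle, and kinetochores tie chromosomes to microtubules. A checkpoint holds the cell until all are tied. The anaphase-promoting complex (APC/C) then marks cyclin B for destruction and lets the sister chromatids part. The transcripts of most of these genes accumulate in late S phase and G2, so that their level in a population is commonly read as a measure of dividing cells. Spermatogonia are the mitotic cells of the male germline, and they divide in culture as chains and clumps.

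Mitotic genes are known to share 2 promoter elements, the CCAAT box and the cell cycle genes homology region (CHR). Promoters of 4 members are shown because they bear on the comparisons below: Cdc20 and Ube2c, both of the APC/C and among the 5 lowest members in EV 1 germ cells, Ccnb1, the member furthest apart between germ and feeder cells, and Ncapd2 of condensin, a group with no member called in germ cells. Each runs 5′ to 3′ in the direction of the gene, from 250 bases before to 50 bases after its start (RefSeq, GRCm38.p6). Capitals mark CHR matches (TTTGAA or TTCGAA) and CCAAT matches, on either strand.
Cdc20 (chr4:118437294-118437593, minus strand): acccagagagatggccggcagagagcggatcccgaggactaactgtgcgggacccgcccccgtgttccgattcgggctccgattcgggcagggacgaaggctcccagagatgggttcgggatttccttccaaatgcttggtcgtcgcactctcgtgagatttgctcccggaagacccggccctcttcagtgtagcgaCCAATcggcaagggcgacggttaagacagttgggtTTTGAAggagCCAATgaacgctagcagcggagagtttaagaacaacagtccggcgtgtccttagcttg
Ube2c (chr2:164769679-164769978, plus strand): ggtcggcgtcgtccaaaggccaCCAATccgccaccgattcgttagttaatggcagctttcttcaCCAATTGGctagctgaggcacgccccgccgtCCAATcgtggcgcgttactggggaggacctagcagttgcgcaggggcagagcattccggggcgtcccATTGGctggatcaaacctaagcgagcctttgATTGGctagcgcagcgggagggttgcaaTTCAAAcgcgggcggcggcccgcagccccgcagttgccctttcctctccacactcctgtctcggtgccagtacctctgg
Ccnb1 (chr13:100786437-100786736, minus strand): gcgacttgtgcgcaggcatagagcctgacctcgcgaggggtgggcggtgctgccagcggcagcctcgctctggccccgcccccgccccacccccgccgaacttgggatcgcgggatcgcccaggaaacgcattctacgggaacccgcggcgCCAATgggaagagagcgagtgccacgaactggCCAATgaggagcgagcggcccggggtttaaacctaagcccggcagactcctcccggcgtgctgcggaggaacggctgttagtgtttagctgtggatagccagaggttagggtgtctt
Ncapd2 (chr6:125191537-125191836, minus strand): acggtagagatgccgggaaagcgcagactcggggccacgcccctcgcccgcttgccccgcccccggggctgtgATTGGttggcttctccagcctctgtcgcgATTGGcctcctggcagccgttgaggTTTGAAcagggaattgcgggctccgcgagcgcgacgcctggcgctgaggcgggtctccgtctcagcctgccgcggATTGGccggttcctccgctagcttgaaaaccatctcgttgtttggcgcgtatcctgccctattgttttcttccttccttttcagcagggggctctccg

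In these windows Cdc20 had 1 CHR and 2 CCAAT matches, Ube2c had 1 and 6, Ccnb1 had 0 and 2, and Ncapd2 had 1 and 3. Overlapping matches were each counted. RefSeq promoters were found for 34 of the 40 members, in 36 windows, and not for Ccna2, Aurkb, Incenp, Smc4, Tpx2 and Kif20a. A CHR match was present in 80.6% of the members' windows and in 19.2% of all 32851 windows, and a CCAAT match in 80.6% against 37.4%. Both stood together in 69.4% of the members' windows and in 7.52% of all. Birc5, Nuf2 and Nusap1 had neither. A match is a description of letters and not a bound site. The 40 genes lie on 15 chromosomes. Ncapd2 and Anln overlap another annotated gene on their own strand, and their counts are less certain for that.

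Cells were put in a class by their marker UMIs. A germ cell had at least 2 UMIs of Dazl, Tex15, Stk31 and Epcam together and more of them than of Col1a1, Col1a2, Sparc and Dcn, and a feeder cell the reverse. After filtering, 4411, 4765 and 226 germ cells and 2355, 2490 and 2507 feeder cells remained in vehicle 1, vehicle 2 and EV 1. Germ cells thus made up 53.4%, 55.2% and 4.73% of the kept cells, and 18.1%, 16.0% and 42.8% fell in neither class and were not compared. The germ class of EV 1 held 324307 UMIs against 9454854 and 10976967 in the vehicle libraries, and its cells were shallower, with a median of 1325 UMIs against 1941 and 2089. Germ markers outside the rule (Ddx4, Dnd1, Mael, Sall4, Tdrd5 and Taf4b) summed to 522, 527 and 512 CPM (counts scaled to an equal total per library and class) in the germ class and to 16.9, 13.7 and 3.54 CPM in the feeder class. Fibroblast markers outside the rule, 10 in all, summed to 1875, 1953 and 1870 CPM in the feeder class and to 209.6, 198 and 330 CPM in the germ class. The near-equal germ sums hid opposite moves in EV 1 germ cells, where Dnd1 (88.5, 86.5 and 46.3 CPM), Sall4 (65.3, 67.05 and 40.1 CPM) and Tdrd5 (44.2, 48.5 and 27.8 CPM) were lower than in both vehicle libraries and Ddx4, Mael and Taf4b were higher. The classes therefore carried their labels in every library, while each held some RNA of the other.

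The mitosis genes were far more abundant in germ cells. All 40 were higher in the germ class than in the feeder class by edgeR's quasi-likelihood test over the 3 libraries (adjusted p from 4.3e-25 for Ccnb1 to 2.2e-10 for Cdk1), and none was lower. Among all 16740 genes tested, 40.3% were higher in germ cells. The median log2 difference of the members was 3.49, and that of all genes was -0.02. A fit scaled to library totals only moved the all-gene median to 0.39 and the members' median to 3.89, and 61.0% of its calls were germ-higher, compared with 49.4% in the fit given here. All 40 members stayed higher in germ cells with that scaling.

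The spacing differed by role. The checkpoint genes, which delay anaphase, had the highest role median (3.83), with Bub1b at 4.36 ± 0.14 (SE). Proliferation genes followed at 3.78, from Ki-67 (Mki67, 3.88 ± 0.18) and topoisomerase II (Top2a, 3.68 ± 0.18). Ccnb1, cyclin B1, was furthest apart of all members (4.72 ± 0.14). Its level was 189.96, 185 and 105 CPM in the germ class and 5.03, 6.27 and 1.48 CPM in the feeder class, in the library order used above. The kinetochore protein gene Cenpf came next (4.48 ± 0.17).

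At the other end stood Cdk1, the kinase that cyclin B activates, at 0.87 ± 0.09. These fitted values were scaled by TMM factors, while CPM were scaled to class totals, so the 2 do not match exactly. On class totals the log2 difference of Cdk1 was 1.30, 1.20 and 1.65, above the fitted value in every library. Germ cells had 88.00, 84.2 and 61.7 CPM of Cdk1 and feeder cells 35.8, 36.5 and 20.1 CPM, so that its feeder level was 40.6%, 43.4% and 32.6% of the germ level. Over all members that percentage had medians of 7.19%, 7.17% and 3.16%. Other members with small differences were Cks1b (1.46 ± 0.11), a small Cdk-binding protein, Anln (1.595 ± 0.10), the cytokinesis scaffold anillin, and Arl6ip1 (1.54 ± 0.16), which encodes a protein that shapes the endoplasmic reticulum. The condensin genes Smc2 and Smc4, which compact chromosomes, stood at 2.27 ± 0.15 and 2.34 ± 0.15. Cyclin and Cdk partners therefore spanned the whole range of the list.

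**Figure D1:**
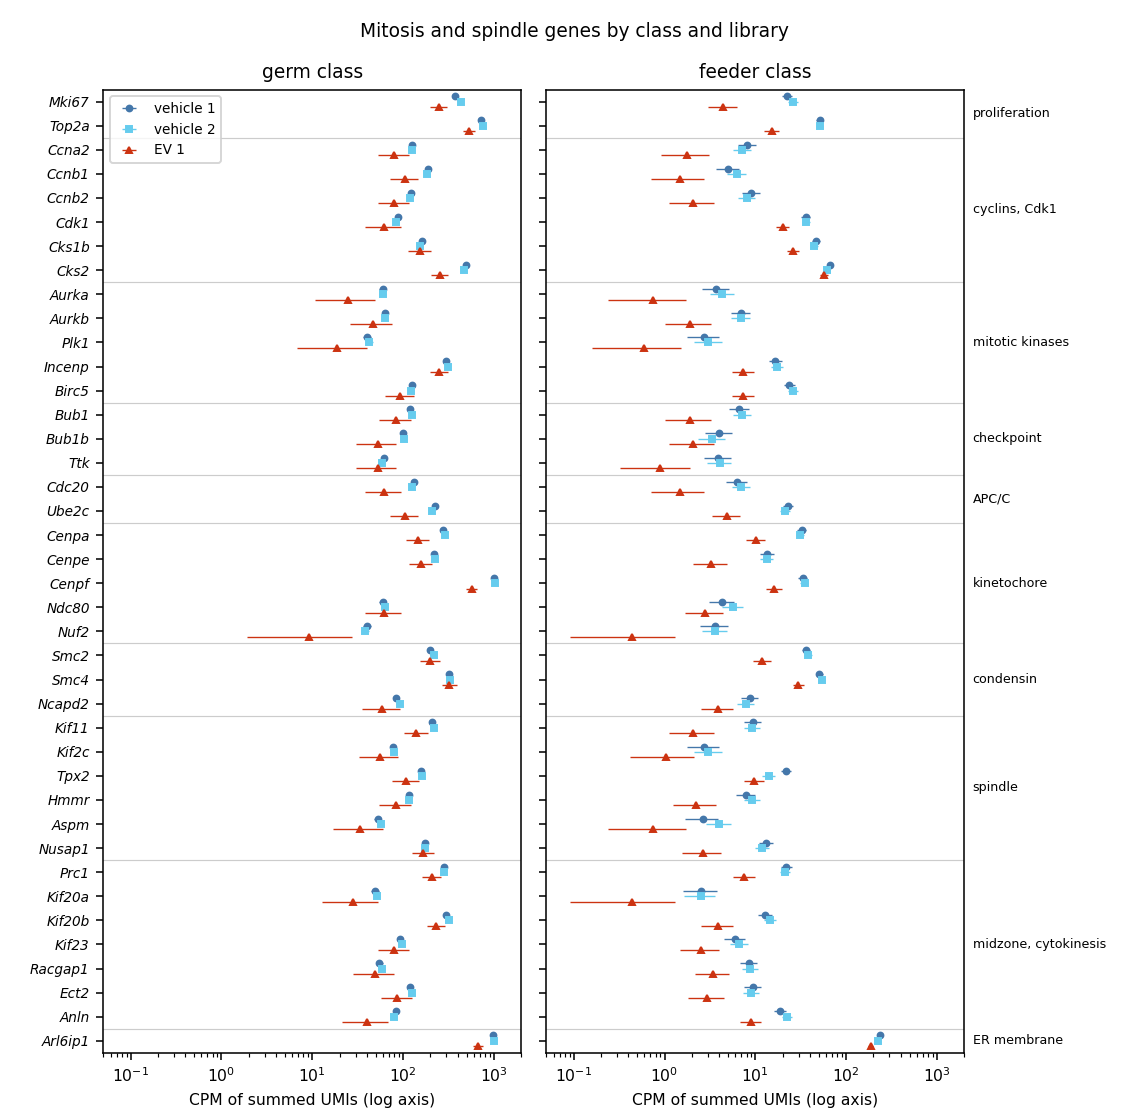
Level of each of the 40 genes in CPM of summed UMIs on a log axis, in the germ class (left) and the feeder class (right), for vehicle 1, vehicle 2 and EV 1, with exact 95% Poisson intervals that cover counting error only. Every gene sits further right in the germ class, and in the feeder class the EV 1 points lie left of both vehicle points for all 40.

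Single germ cells carried several members at once. Cells were thinned to 1000 UMIs each so that depth was equal, which left 4265, 4653 and 178 germ cells. The median was 6, 7 and 4 member UMIs per cell in vehicle 1, vehicle 2 and EV 1, and 2.65%, 3.46% and 8.43% of the cells had none. In feeder cells 56.4%, 59.6% and 68.2% had none. In vehicle 1, germ cells with a UMI of Hmmr, a spindle microtubule protein, held 11.7 UMIs of the other members on average, and cells without it 7.06. For Ube2c these were 11.1 and 6.66, and for the condensin gene Smc4 8.296 and 6.93. Vehicle 2 gave 12.6 and 7.22 for Hmmr, 11.8 and 6.90 for Ube2c, and 8.79 and 7.099 for Smc4. EV 1 gave 11.4 and 5.196 for Hmmr, 7.73 and 5.61 for Ube2c, and 6.58 and 4.88 for Smc4. In EV 1 only 15 cells had a UMI of Hmmr and 11 a UMI of Ube2c. In every library the gap was wider for Hmmr than for Smc4, a difference that was not tested.

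EV and vehicle germ cells were compared next, to ask whether mitotic transcripts differed after EV treatment. All values below run in the order vehicle 1, vehicle 2, EV 1. In EV 1 germ cells 38 of the 40 members lay under both vehicle libraries, against 53.5% of all 5722 genes with at least 10 expected UMIs per library. A member was called lower where its EV 1 level was at most 1/1.5 of the vehicle mean and under both vehicle libraries. By this rule 17 members were lower and 0 were higher, and of all genes 11.6% were lower and 5.70% higher. The members' median log2 ratio was -0.53, against -0.05 for all genes. Of the 6 germ check markers 3 were called lower by the same rule (Dnd1, Sall4 and Tdrd5), and their part in the members' values was not tested. The members' summed level was 8419, 8647 and 5794 CPM, a ratio to pooled vehicle of 0.678 (0.648 to 0.710, counting error only). All 40 members passed the filter, and no member differed between the vehicle libraries by 1.5-fold. With every cell thinned to 1000 UMIs the ratio was 0.753 (0.707 to 0.8005), and in thinned cells of 1000 to 2000 UMIs it was 0.968, as given further on.

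The APC/C pair was the lowest role group, with a median log2 ratio of -1.03. Ube2c, the conjugating enzyme that starts ubiquitin chains for the APC/C, was at 227, 209.7 and 105 CPM, a log2 ratio of -1.04. Cdc20, the activator of the APC/C in metaphase, was at 130.4, 126 and 61.7 CPM (-1.02). For both genes the vehicle libraries lay close together and EV 1 stood apart, with 34 and 20 UMIs in EV 1.

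Among the kinetochore genes (median -0.83, 3 of 5 called lower) the centromeric histone Cenpa was at 274, 286 and 145 CPM (-0.94). Cenpf was at 991, 1038 and 570.4 CPM (-0.83). Both were well below the vehicle range in EV 1. The lowest and the highest ratio of the germ class also came from this group, from partners in 1 microtubule-binding complex. Nuf2, at 39.7, 37.99 and 9.25 CPM, had the lowest ratio of all members, 0.239 (interval 0.0491 to 0.7), but on 3 UMIs in EV 1. Ndc80, its partner, was at 59.4, 62.7 and 61.7 CPM and had the highest, 1.01 (interval 0.614 to 1.56), with EV 1 between the vehicle libraries.

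Cyclins and Cdk partners had a median of -0.59, with 4 of 6 called lower (Ccna2, Ccnb1, Ccnb2 and Cks2), of which Ccna2 was at 0.05 in cells of 1000 to 2000 UMIs. Cks2 was at 489, 471 and 253 CPM (-0.92). Ccnb1, whose levels are given above, had a log2 ratio of -0.82. In cells of 1000 to 2000 UMIs Cks2 (-0.46), Ccnb1 (-0.25) and Ccnb2 (-0.14) were below 0 but not called. Cks1b, a close relative of Cks2 in the same Cdk-binding family, was at 163, 155 and 154 CPM (-0.03), and the interval of its ratio held 1 (0.721 to 1.29). Whether the 2 Cks genes differed from each other was not tested.

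Of the proliferation genes Mki67 was called lower, at 372, 428 and 247 CPM (-0.69), but was above vehicle in cells of 1000 to 2000 UMIs (0.52). Top2a was at 715, 751 and 527 CPM (-0.47), under both vehicle libraries but not by 1.5-fold, and at 0.07 in cells of 1000 to 2000 UMIs. Among the mitotic kinases Aurka, which acts at the spindle poles, was at 59.8, 59.4 and 24.7 CPM (-1.19). Plk1, the Polo-like kinase, was at 40.3, 42.4 and 18.5 CPM (-1.05), and at 0.25 in cells of 1000 to 2000 UMIs. Both rest on under 10 UMIs in EV 1 (8 and 6), and their intervals reached 0.819 and 0.977 of vehicle.

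Members of the chromosomal passenger complex, which corrects faulty attachments, lay nearer to vehicle. Incenp was at 300.2, 311 and 249.8 CPM (-0.28) and Birc5, survivin, at 124, 122 and 92.5 CPM (-0.39). Neither was called, and in cells of 1000 to 2000 UMIs they were at 0.33 and 0.20. Of the checkpoint genes Bub1b was called lower, at 100.3, 102 and 52.4 CPM (-0.91), and Bub1, at 119, 124 and 83.3 CPM (-0.52), was not. In cells of 1000 to 2000 UMIs Bub1b was at -0.23 and did not pass the filter.

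The condensin group had a median of -0.07 and 0 of 3 called. Its subunit gene Ncapd2 was near the members' median, at 83.4, 92.2 and 58.6 CPM (-0.55). Smc4 was at 316, 328 and 324 CPM (0.01) and Smc2 at 198, 218 and 197 CPM (-0.07), and the interval of both ratios held 1. In cells of 1000 to 2000 UMIs Smc4 was called higher (0.61), and Smc2 was at -0.48 and not called. In the spindle group (median -0.50, 2 of 6 lower) Kif11, the motor that pushes the poles apart, was at 209.8, 219 and 139 CPM (-0.61) and called lower, but above vehicle in cells of 1000 to 2000 UMIs (0.45). Nusap1, a microtubule-binding protein, was at 176, 174 and 167 CPM (-0.06). The group thus held both a called gene and one close to vehicle.

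In the midzone and cytokinesis group (median -0.43) Anln and Kif20a were called lower, 2 of 7. Kif20b, a midzone motor, was at 299, 321 and 231 CPM (-0.41). Prc1, which bundles the microtubules of the midzone, was at 281, 279.7 and 207 CPM (-0.43). Arl6ip1 was at 983, 1002 and 669 CPM (-0.57). All 3 were under both vehicle libraries without reaching 1.5-fold, and in cells of 1000 to 2000 UMIs Prc1 was above them (0.51). There Anln was at 0.28, on few UMIs. Across the 40 members the counting interval of the ratio lay under 1 for 22 and held 1 for 18, among them Aspm and Kif20a of the 17 called.

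**Figure D2:**
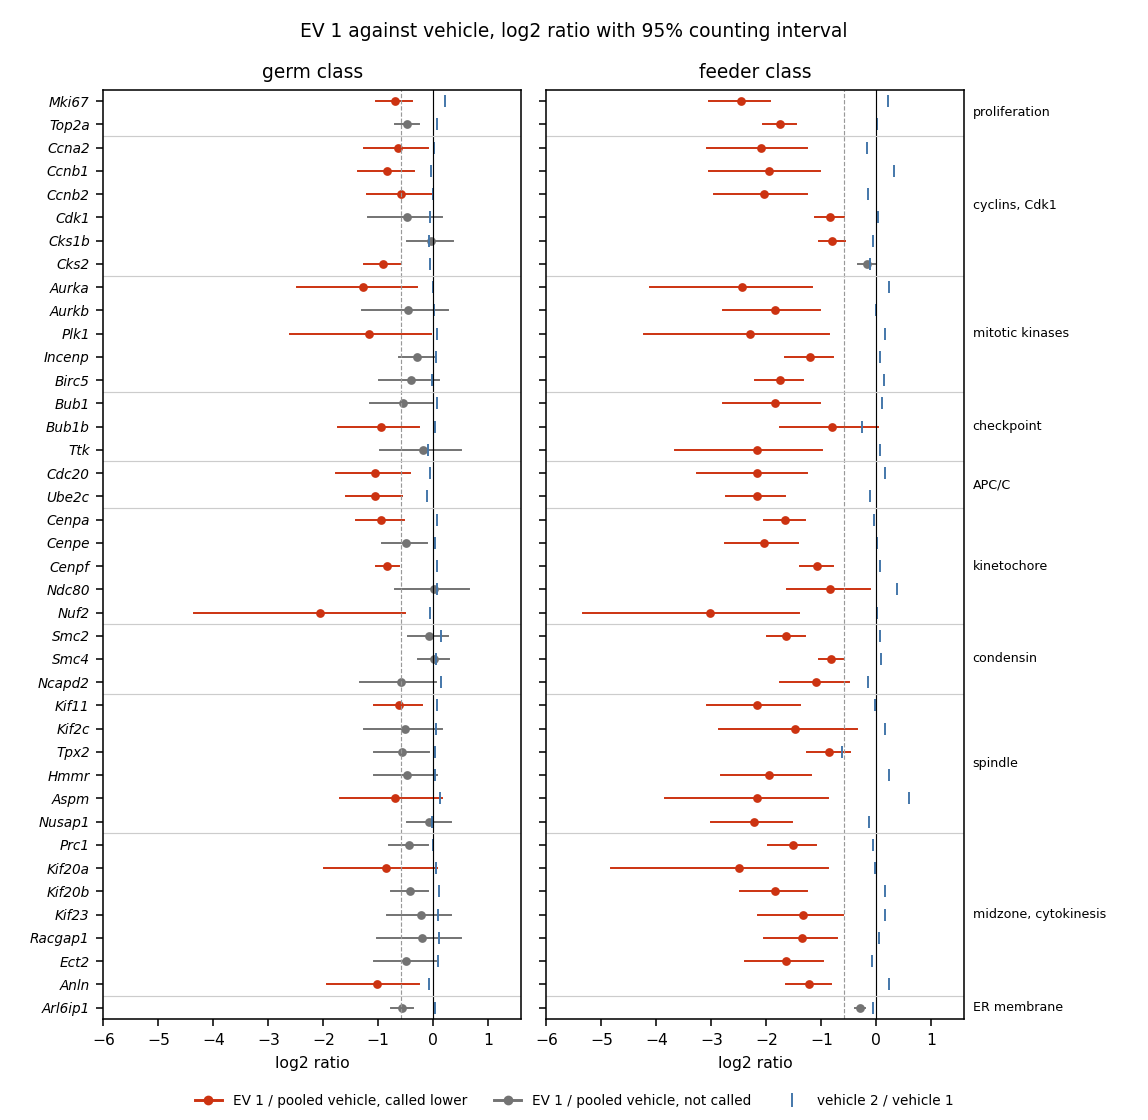
Log2 ratio of EV 1 to pooled vehicle for each gene with its 95% counting interval, in the germ class (left) and the feeder class (right), red where the gene was called lower and grey where it was not. Blue ticks give the log2 ratio of vehicle 2 to vehicle 1 and the dashed line marks 1.5-fold lower. In the germ class 17 genes are red and 18 intervals hold 0, and in the feeder class 38 are red.

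Member levels rose with cell depth, and EV 1 germ cells were shallow. After thinning to 1000 UMIs, 65.96%, 66.19% and 49.4% of germ cells had 5 or more member UMIs (exact 95% interval in EV 1 41.9% to 57.0%). In vehicle 1 the cells with 5 or more had been sequenced to a median of 2189 UMIs and the others to 1650.5, although both were thinned to the same number. The share is a range and not a cell type, since 15.7%, 16.3% and 13.5% of the cells held 4 or 5 UMIs, next to the limit.

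When only cells of 1000 to 2000 UMIs were used, an alternative chosen after seeing the data, the shares were 50.7% of 2199 cells, 48.8% of 2053 cells and 43.4% of 152 cells (interval in EV 1 35.4% to 51.7%). The summed member level in these cells was 5590, 5324 and 5289 CPM of thinned UMIs. The ratio to pooled vehicle was 0.968 (0.902 to 1.04), so no difference in the summed level was detectable at this depth. Of the 24 members that still passed the filter, 3 were called lower (background 13.7%) and 2 higher (background 6.54%), and their median log2 ratio was -0.01. Both counts were near the background. The median depth within this range was 1584, 1618 and 1371.5 UMIs, so EV 1 remained the shallowest.

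The 3 that were lower in cells of like depth were Cdc20 (-0.98, 6 UMIs in EV 1), Ube2c (-0.54, 11 UMIs) and Cenpf (-0.64, 51 UMIs). Cenpf was at 548, 505 and 336 CPM there. The 2 that were higher were Smc4 (0.61) and Nusap1 (0.75). Of those called lower over all depths, Mki67 (0.52), Kif11 (0.45) and Ccna2 (0.05) passed the filter and were above 0 here, and of the 24 members 12 were below 0. Plk1 (0.25), Anln (0.28) and Aspm (0.77), also called lower over all depths, did not pass it and were above 0 on 4, 9 and 6 UMIs in EV 1. Ccnb1 (-0.25), Ccnb2 (-0.14), Cks2 (-0.46) and Cenpa (-0.53) passed it, stayed below 0 and lost their calls. Aurka (-0.79), Bub1b (-0.23), Nuf2 (-1.66) and Kif20a (-0.19) did not pass it and were below 0. Smc4 and Nusap1 had been close to vehicle over all depths (0.01 and -0.06). Fibroblast markers, at 330 CPM in the germ class of EV 1 against 209.6 and 198, moved with the comparison too, and their part in it was not tested.

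**Figure D3:**
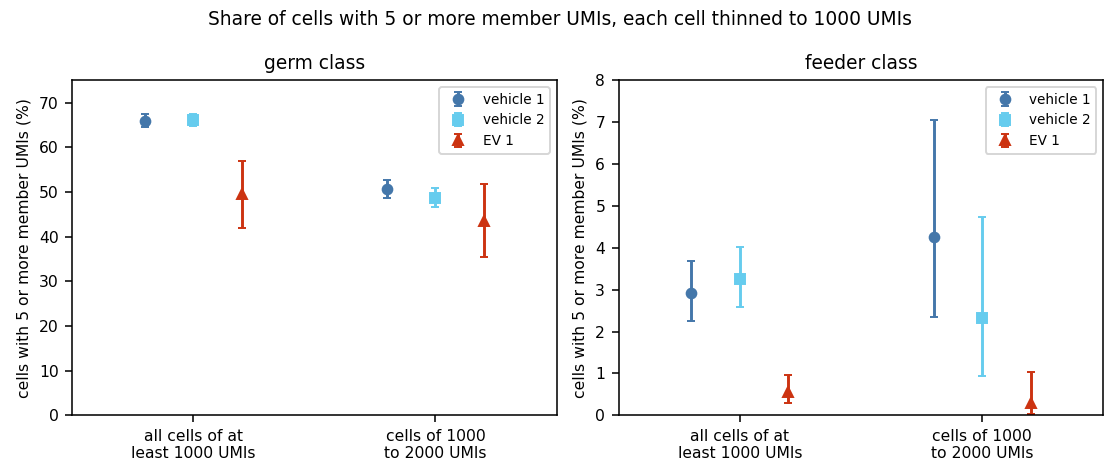
Percent of cells with 5 or more member UMIs after thinning each cell to 1000 UMIs, for all cells of at least 1000 UMIs and for cells of 1000 to 2000 UMIs, by class and library, with exact 95% binomial intervals (counting error only). In germ cells the gap between EV 1 (49.4%) and vehicle (65.96% and 66.19%) narrows to 43.4% against 50.7% and 48.8%, and in feeder cells EV 1 stays lowest in both.

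In the feeder class the mitotic transcripts were scarce in all libraries and scarcest in EV 1. The members summed to 896, 890 and 469 CPM in vehicle 1, vehicle 2 and EV 1, a ratio of 0.526 (0.506 to 0.546). All 40 members were under both vehicle libraries, against 56.3% of the 13383 genes that passed the filter. By the 1.5-fold rule 38 were called lower (14.4% of all genes) and 0 higher (7.40%). Their median log2 ratio was -1.74, against -0.12 for all genes. TMM scaling moved the all-gene median to about 0 and the share of lower among all calls from 66.1% to 51.1% (DESeq2 size factors gave 50.5%), and the members' count stayed at 38 with a median of -1.62.

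Of the proliferation genes Mki67 was among the lowest members and Top2a near the median. Mki67 was at 22.4, 26.02 and 4.43 CPM (-2.43) and Top2a at 51.1, 51.3 and 15.2 CPM (-1.75). The APC/C pair had a median of -2.14. Ube2c was at 22.96, 21.1 and 4.87 CPM (-2.16) and Cdc20 at 6.29, 7.01 and 1.48 CPM (-2.11). For these 4 genes the vehicle libraries lay close to each other and several-fold above EV 1.

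Nuf2 had the lowest ratio in this class as well, at 3.56, 3.599 and 0.443 CPM, or 0.124 (interval 0.0249 to 0.376) of pooled vehicle on 3 UMIs in EV 1. Aurka was at 3.67, 4.34 and 0.738 CPM (-2.32). Kif20a, a midzone motor, was at 2.52, 2.49 and 0.443 CPM, or 0.177 (interval 0.0353 to 0.547) on 3 UMIs. Nusap1 was at 13.1, 11.9 and 2.66 CPM (-2.20). These extremes rest on few molecules, while Mki67 and Ube2c had 30 and 33 UMIs in EV 1.

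Only Cks2 and Arl6ip1 were not called. Cks2 was at 66.9, 61.6 and 57.1 CPM (-0.17) and Arl6ip1 at 233, 223 and 186 CPM (-0.30). Cks1b (-0.80), Bub1b (-0.79) and Ndc80 (-0.80) were the other 3 of the 5 highest. Cks1b was at 46.8, 44.8 and 26.3 CPM, Bub1b at 3.98, 3.32 and 2.07 CPM and Ndc80 at 4.299, 5.63 and 2.81 CPM. Bub1b was the 1 called member whose interval held 1. Less the germ share, as given further on, Bub1b (1.27) and Cks2 (0.14) turned above 0 and Ndc80 (-0.42) lost its call.

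The remaining groups lay between these ends. Of the passenger complex Birc5 was at 23.7, 26.02 and 7.38 CPM (-1.74) and Incenp at 16.7, 17.4 and 7.38 CPM (-1.20). Of the kinetochore genes Cenpa was at 32.3, 31.2 and 10.04 CPM (-1.65) and Cenpf at 33.2, 34.8 and 16.1 CPM (-1.07). The checkpoint kinase Bub1 was at 6.61, 7.11 and 1.92 CPM (-1.79). In all of these, as counted, EV 1 was under both vehicle libraries. Less the germ share, as given further on, Incenp lost its call and Cenpf turned above 0 (1.43).

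Of the condensin genes Smc4 was at 50.7, 54.2 and 29.7 CPM (-0.82) and Smc2 at 36.4, 37.9 and 11.96 CPM (-1.63). Of the cytokinesis group Prc1 was at 22.02, 21.2 and 7.53 CPM (-1.51) and Anln at 18.9, 22.2 and 8.86 CPM (-1.21). Tpx2, which nucleates spindle microtubules, was at 21.8, 14.1 and 9.75 CPM (-0.88). It was 1 of 2 members, with Aspm, whose vehicle libraries stood 1.5-fold or more apart, and without vehicle 1 its call was lost (log2 ratio -0.53).

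Germ RNA in the feeder class moved with these values. The summed germ check markers in feeder cells stood at 3.24%, 2.59% and 0.692% of their germ level in vehicle 1, vehicle 2 and EV 1. In the same libraries the members stood at a median of 7.19%, 7.17% and 3.16% of theirs, and only Ccnb1 in vehicle 1 (2.65%) was at or below the marker percentage. In an alternative chosen after seeing the data, that percentage of each member's germ level was taken away from its feeder level. The members then summed to 624, 666 and 429 CPM. By the same rule 31 of the 40 were lower in EV 1, against 12.0% of all genes, and the median over the 39 members that stayed above 0 in every library was -1.37. Under it 4 members turned above 0: Bub1b (1.27), Cenpf (1.43), Kif2c (0.14) and Cks2 (0.14). Incenp (-0.53), Ndc80 (-0.42) and Tpx2 (-0.57) stayed below 0 and lost their calls, as did Ccnb1, which was not above 0 in vehicle 1.

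**Figure D4:**
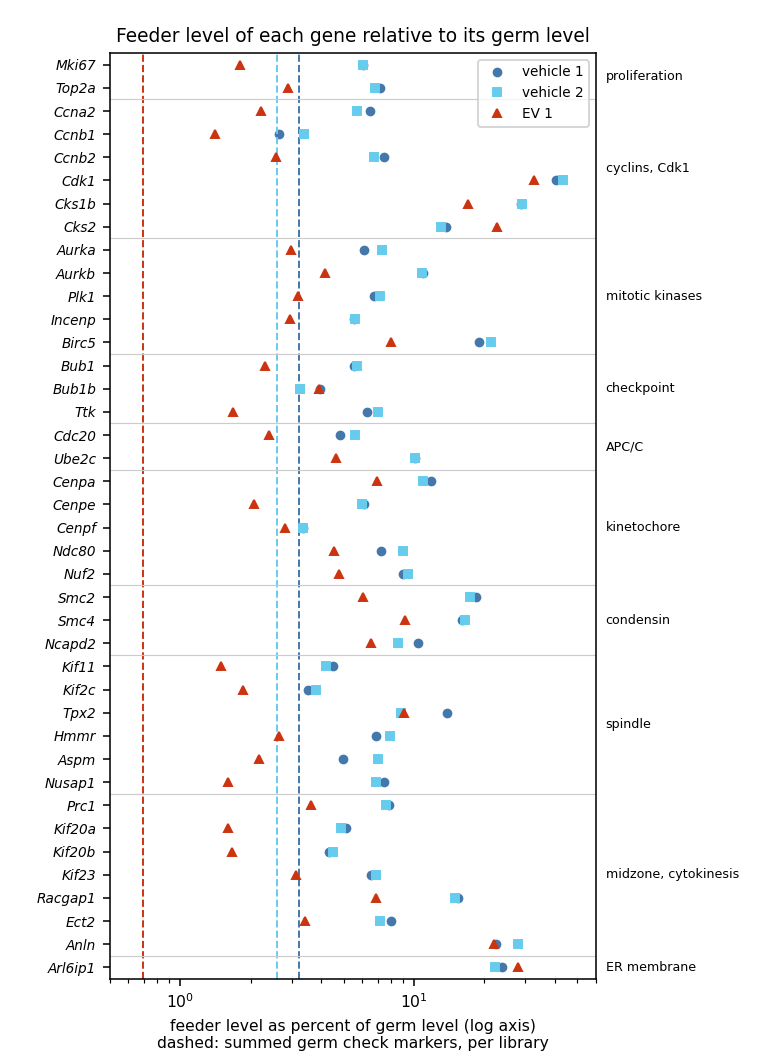
Feeder level of each gene as a percent of its germ level on a log axis, for vehicle 1, vehicle 2 and EV 1, with dashed lines at the same percent for the summed germ check markers (3.24%, 2.59% and 0.692%). Nearly all members lie right of the line of their own library, Cdk1 furthest at 32.6% to 43.4%, and EV 1 lies left of both vehicle libraries for all but Arl6ip1, Bub1b, Cks2 and Tpx2.

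Few feeder cells held several member UMIs. Feeder cells with 5 or more member UMIs were 66 of 2268 (2.91%), 79 of 2434 (3.25%) and 13 of 2322 (0.560%, interval 0.298% to 0.955%). They held 29.2%, 35.4% and 11.6% of the member UMIs of the class, so most of these UMIs lay in the other feeder cells. Within such cells the mean was 8.21, 8.37 and 8.92 member UMIs, a value that the limit of 5 holds up by construction and that rests on 13 cells in EV 1. In the remaining feeder cells the members averaged 0.596, 0.512 and 0.385 UMIs per cell. Among cells of 1000 to 2000 UMIs the share was 4.27% of 328, 2.33% of 301 and 0.287% of 696, and the summed ratio was 0.470 (0.403 to 0.547), compared with 0.547 (0.509 to 0.586) in thinned feeder cells of any depth from 1000 UMIs. At that depth 3 members passed the filter, of which Smc4 was called lower (10.3% of all genes) and none higher (7.37%).

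The cells with 5 or more carried DNA replication genes as well, at 3621, 4152 and 3923 CPM against 671, 639 and 449 CPM in the other feeder cells. Their fibroblast check markers were at 1000, 823 and 1077 CPM against 2065, 2139 and 1984 CPM. Their germ check markers had 13, 2 and 0 UMIs, or 197, 25.3 and 0 CPM. The 13 cells of EV 1 are too few to set their 0 apart from vehicle 1. The cells with 5 or more were also the deeper cells, with medians of 4721, 5707 and 4565 UMIs against 3698.5, 3934 and 2562 in the others, and the part of doublets in them was not tested.

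**Figure D5:**
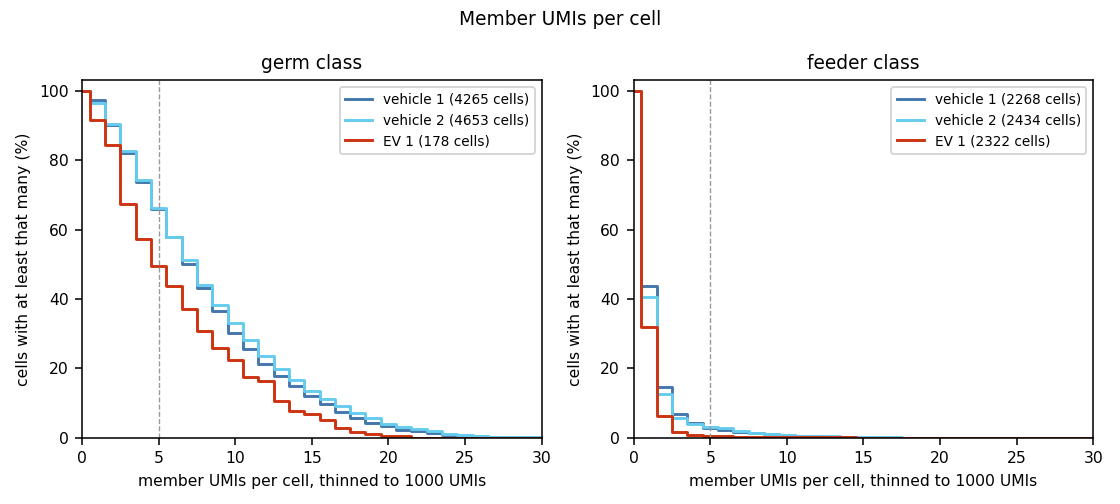
Percent of cells with at least the number of member UMIs on the horizontal axis, each cell thinned to 1000 UMIs, in germ cells (left) and feeder cells (right) of vehicle 1, vehicle 2 and EV 1. The dashed line marks 5 UMIs, which 65.96%, 66.19% and 49.4% of germ cells and 2.91%, 3.25% and 0.560% of feeder cells reached.

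Other genes of division were read from lists chosen with the members. Of 83 further mitotic genes, 79 were higher in germ than feeder cells (40.3% of all genes) and 3 were higher in feeder cells (41.4%). In EV 1 germ cells 53 of them passed the filter, 8 were called lower (11.6% of all genes) and 1, Cit, higher (5.70%), with a median log2 ratio of -0.13. The count called lower was near the background. In feeder cells 77 passed and 58 were called lower (14.4% of all genes), with a median of -1.10. Of 40 DNA replication genes, 38 were higher in germ cells. In the EV 1 germ class 36 passed and 4 were lower (Mcm7, Pola2, Pold1 and Rfc5), a share like the 11.6% of all genes, with a median of -0.20. In the feeder class 40 passed and 28 were lower, against 14.4% of all genes (median -0.91). The germ check markers were lower in EV 1 feeder cells too (16.9, 13.7 and 3.54 CPM). The part of germ RNA in the feeder values of both lists was not tested. The genes named as called in germ cells were chosen after their values were seen. In both classes the 40 members therefore had lower medians over all depths than these lists, a difference that was not tested. In germ cells of 1000 to 2000 UMIs the members' median was -0.01, and the lists were not read there.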

How the data were processed

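Droplet libraries of the cultures had been sequenced, and per the labels and the methods of the study Cell Ranger 7.0.1 mapped the reads to mm10 and counted them over GENCODE vM23 genes. For vehicle 1, vehicle 2 and EV 1 the deposited matrices used here hold raw UMI counts per gene and barcode, and counts of EV 2 were not analysed here. The 40 members and all other gene lists were chosen with earlier results of these data known.

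Kept cells had a gene number above 400 and below 4000 and less than 10% of UMIs from the mitochondrial genome, and the highest Scrublet scores (scanpy 1.11.5) were removed at 0.8% per 1000 cells, which left 8263, 8637 and 4779 cells of vehicle 1, vehicle 2 and EV 1. The libraries held 23686047, 27444797 and 10793232 UMIs, and pairs of libraries shared at most 22 barcodes. UMIs were summed per library and class and scaled to CPM. Log2 ratios had 0.5 UMI added, and the 1.5-fold rule used CPM as such. Intervals (95%, exact Poisson, binomial or conditional) cover counting error only. Germ and feeder sums were tested with edgeR 4.0.16 (R 4.3.3), with TMM factors, filterByExpr, the library as a term and Benjamini-Hochberg adjustment over all genes at 0.05. Vehicle replicates are as labelled, and the labels do not say that they came from separate animals, so p-values do not measure a spread between animals. They come from 2 class sums in each of the 3 libraries, EV 1 among them. The fit also draws its estimate of spread from all genes, so p-values reflect the spread between these libraries only in part. Values in every library were given for the 2 members of each role group with the most UMIs and for the 5 lowest and 5 highest log2 ratios of each class. Gene positions were those of GENCODE vM21 (GRCm38, the same build as mm10). The edgeR fit and the ratio rule were tested on simulated data. The alternatives are given in the closing section.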

Additional observations from a re-analysis of the deposited data

How the results depend on the processing

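No EV result has a replicate check. The summed germ ratio was 0.678 in full sums, 0.753 in cells thinned to 1000 UMIs and 0.968 in thinned cells of 1000 to 2000 UMIs. The feeder ratio was 0.526, 0.547 and 0.470, and its count of 38 became 31 less the germ share. The higher level of all 40 members in germ cells held under each of the 13 alternatives, DESeq2 included. In germ cells the median log2 ratio of -0.53 became -0.46 with 3 or more marker UMIs, -0.61 with all deposited barcodes and with doublets kept, -0.40 in thinned sums and -0.47 as a mean over cells, and -0.013 in cells of 1000 to 2000 UMIs. The 17 members called lower became 11 with 3 or more marker UMIs, 6 at a fold of 2, 3 in cells of 1000 to 2000 UMIs and 38 when any amount under both vehicle libraries counted. In feeder cells the median of -1.74 became -1.65 with 3 or more marker UMIs, -1.62 with the strict class, -2.21 with all barcodes, -1.89 with no upper limit of genes (such cells had no doublet score), -2.12 with doublets kept, -1.62 with TMM and -1.61 with DESeq2 size factors, -1.47 in thinned sums, -1.65 at 20 or more expected UMIs, -1.59 as a mean over cells, and -1.37 less the germ share. In feeder cells of 1000 to 2000 UMIs it was -0.46 with 1 lower, but over only the 3 members that passed, Cks2 (-0.46, against -0.17 over all depths), Smc4 (-0.89, against -0.82) and Arl6ip1 (-0.04, against -0.30), so it does not compare with the median of 40. In germ cells of that depth 12 of 24 members were below 0. Among those above 0 were Mki67 (0.52), Kif11 (0.45), Ccna2 (0.05), Top2a (0.07), Incenp (0.33), Birc5 (0.20), Nusap1 (0.75) and Prc1 (0.51), each below 0 over all depths. The cause of the other shifts was not tested.

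The share of germ cells with 5 or more member UMIs was 16.6 percentage points lower in EV 1 (-16.6). It became -19.4 with 3 or more marker UMIs, -14.7 with the strict class, -18.1 with all barcodes, -9.26 at 2000 UMIs, -30.6 without thinning, -5.37 and -9.28 at 1 and 10 or more member UMIs, and -6.29 in cells of 1000 to 2000 UMIs. In feeder cells -2.52 became -2.12, -2.25 and -3.89 under the first 3 of these, -3.33 with doublets kept, -4.47 at 2000 UMIs, -12.5 without thinning, -10.2 and -0.595 at 1 and 10 or more, and -3.01 in cells of 1000 to 2000 UMIs. The EV 1 germ share at 2000 UMIs rests on 26 cells (84.6%, interval 65.1% to 95.6%). Leaving out a vehicle library gave -0.55 to -0.48 and -1.78 to -1.70 for the medians, 17 to 17 and 37 to 38 for the counts, and -16.8 to -16.5 and -2.69 to -2.35 for the shares. Among all genes, germ cells had 666 lower and 326 higher in EV 1, which became 1148 and 773 at 5 or more expected UMIs, 327 and 114 at 20 or more, 7559 and 4659 with no filter, 166 and 66 at a fold of 2, 421 and 201 in cells of 1000 to 2000 UMIs, and 494 and 198 in thinned sums. Feeder cells had 1928 and 990, which became 4792 and 4678 with no filter, 731 and 353 at a fold of 2, and 529 and 380 in cells of 1000 to 2000 UMIs. Genes higher in germ than feeder cells fell from 6747 to 4454 without vehicle 1 and 4334 without vehicle 2. No paired analysis was possible because the EV and vehicle libraries with counts share only replicate number 1.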

Other observations

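Some genes of division went against the members. Of the 83 other mitotic genes, Psrc1, a spindle microtubule protein, was higher in feeder than germ cells (log2 germ over feeder -2.95 ± 0.15, SE), as were the kinetochore genes Zwint (-1.37 ± 0.14) and Cenpc1 (-0.30 ± 0.09), by edgeR's quasi-likelihood test with adjusted p of 9.2e-19, 1.5e-10 and 0.0040. Of 12 D cyclins, their kinases and Cdk inhibitors, 8 were higher in feeder cells and 3 in germ cells, against 41.4% and 40.3% of all genes. Cdkn1a, the inhibitor p21, was at 61.4, 57.5 and 209.7 CPM in germ cells of vehicle 1, vehicle 2 and EV 1 and the only gene of that list called in them (log2 ratio 1.83), where 5.70% of all genes were called higher. In feeder cells it was at 931, 1044 and 996 CPM. The fibroblast check markers, at 330 CPM in the EV 1 germ class and 209.6 and 198 in vehicle, moved with it, and their part was not tested. In EV 1 feeder cells 2 of the 12 were called lower (14.4% of all genes) and 1 higher (7.40%). Ccnd2, cyclin D2, was the higher, at 331, 356 and 555 CPM (0.69). Cdkn2c was lower at 29.5, 32.8 and 18.8 CPM (-0.73), and Cdkn1c at 5.03, 3.32 and 0.295 CPM on 2 UMIs in EV 1, where the germ check markers were lower too. These genes were chosen after their values were seen.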
